A study of Mus musculus with 20 samples.

Results

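The lowest dose of resistant potato starch (RPS) in a diet series was compared with the same diet without it, in the distal colon of mice. The 2% RPS group (mice RS10_709, RS10_712, RS10_715, RS10_716 and RS10_748) and the 0% RPS group (mice RS10_701, RS10_703, RS10_704, RS10_707 and RS10_708) held 5 mice each, 10 of the 20 mice measured, and were taken as the libraries that the sample descriptions place at those doses. All were C57BL/6 mice that ate the Total Western Diet (TWD), a rodent diet modelled on human intake in the United States, for 6 weeks from 3 weeks of age. For the next 3 weeks the 0% group stayed on the TWD and the 2% group ate the TWD with 2% RPS added by weight, which the labels call raw potato starch. The other 10 mice ate 5% or 10% RPS. A piece of colon close to the anus was taken from each mouse, polyadenylated RNA was sequenced, and each library is 1 mouse. The values are counts of reads per gene and, where levels are given, CPM, which is the count divided by the TMM-scaled library total in megacounts (M).

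Resistant starch escapes digestion in the small intestine and is fermented by bacteria of the cecum and colon into short chain fatty acids. One of these, butyrate, enters colonocytes through monocarboxylate transporters, is oxidised in their mitochondria, and can act on histone deacetylases and on G protein-coupled receptors. The distal colon is known for absorbing sodium through the epithelial sodium channel and sodium-hydrogen exchangers, for a thick mucus layer made by goblet cells, and for a lamina propria rich in plasma cells that secrete immunoglobulin A.

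The labels of mouse RS10_748 disagree: its description places it at 2% RPS and its treatment label at 10%. Mouse RS10_717 is 5% by description and 2% by treatment label, and mouse RS10_725 is 10% and 5%. The descriptions were followed, and results are also given without mouse RS10_748 or with all 3 mice at their treatment label. Total counts were 32.8 ± 1.35 M at 0% RPS (SD, n = 5, 31.3 to 35 M) and 27.9 ± 2.61 M at 2% RPS (24.5 to 31.1 M), groups that did not overlap (two-sided exact permutation test, p = 0.0079, the smallest that 5 against 5 mice can give). Libraries at 0% RPS also had more genes with a count (22260 to 22596 against 21892 to 22376). Genes without overlap are therefore also given with every library thinned to 1 total. Markers of distal colon were present in all 10 libraries: the surface colonocyte gene Car1 measured 791 to 1993 CPM, the goblet cell mucin Muc2 2037 to 3356 CPM, the posterior patterning gene Hoxd13 141 to 236 CPM, and the muscle gene Myh11 2125 to 3926 CPM, so the pieces held muscle as well as mucosa.

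Libraries of 3 mice stood apart in some genes of other tissues. Mouse RS10_703 (0% RPS) held 99.2 CPM of Alb, which encodes serum albumin, where the next mouse held 4.32 CPM, and it was the highest of the 10 mice for 25 of 26 liver secreted protein genes, summing to 424 CPM against at most 194 CPM in the others. Mouse RS10_707 (0% RPS) held 77.7 CPM of the prostate gene Pbsn (next 0.43 CPM), 47.6 CPM of the prostate transglutaminase Tgm4 (next 3.44 CPM) and 310.2 CPM of Fcgbpl1 (next 2.68 CPM). The prostate and seminal gland list as a whole set this mouse apart little. Mouse RS10_707 was highest for 6 of its 15 genes with counts, and summed to 440 CPM against at most 394 CPM in the others. Mouse RS10_715 (2% RPS) held 198 CPM of the beta globin Hbb-bs (next 27.6 CPM), with red blood cell genes summing to 399.7 CPM against at most 94.4 CPM elsewhere, and 307 CPM of the immediate early gene Egr1 (next 54.8 CPM). The large fold changes outside the immunoglobulin genes lay mostly in these mice. Of 27 such genes with at least 1 CPM on average and a log2 fold change of at least 1 in size, 17 had over 50% of their summed level in 1 mouse, 7 in mouse RS10_703, 3 in mouse RS10_707 and 7 in mouse RS10_715. The lowest log2 fold changes among the 27 were -6.89 for Pbsn, -5.66 for Fcgbpl1, -3.30 for the heme carrier Hpx, -3.21 for the liver glycoprotein Ahsg and -3.10 for Alb, and each of these genes had over 50% of its level in 1 control mouse. Of the liver genes 6 of 18 tested, and of the prostate and seminal gland genes 3 of 5, were lower at 2% RPS with an unadjusted p under 0.05, and 3 of 10 red blood cell genes were higher. Of all genes, 0.721% were lower and 0.693% higher in that sense. The part of these libraries in other results was not tested beyond leaving the 3 mice out.

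No gene passed the edgeR test between 2% and 0% RPS, and the 1 gene that DESeq2 called was the immunoglobulin light chain segment Igkv4-57. edgeR's quasi-likelihood test called 0 of 17893 genes (0%) at an adjusted p of 0.05 with a fold change of 1.5, and its smallest adjusted p was 0.9997 (Benjamini-Hochberg). An unadjusted p under 0.05 was reached by 253 genes, 124 higher (0.693% of those tested) and 129 lower (0.721%) at 2% RPS, or 1.41% together, where a threshold of 0.05 passes 5% on average when no gene differs. Only 34 genes had an unadjusted p under 0.01. DESeq2 called 1 of 25901 genes (0.00386%) and gave 369 genes an unadjusted p under 0.05. The median log2 fold change over all genes was -0.00098, with quartiles at -0.07 and 0.07. Diet held 8.0% of the variance among the 10 mice, less than the mean of 11.1% over all 252 ways to divide them 5 and 5 (one-sided exact permutation test, p = 0.865). Correlations across genes gave similar values for both kinds of pair, with a median between mice of different diets of 0.986, against 0.984 within the 0% and 0.987 within the 2% group.

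**Figure D1:**
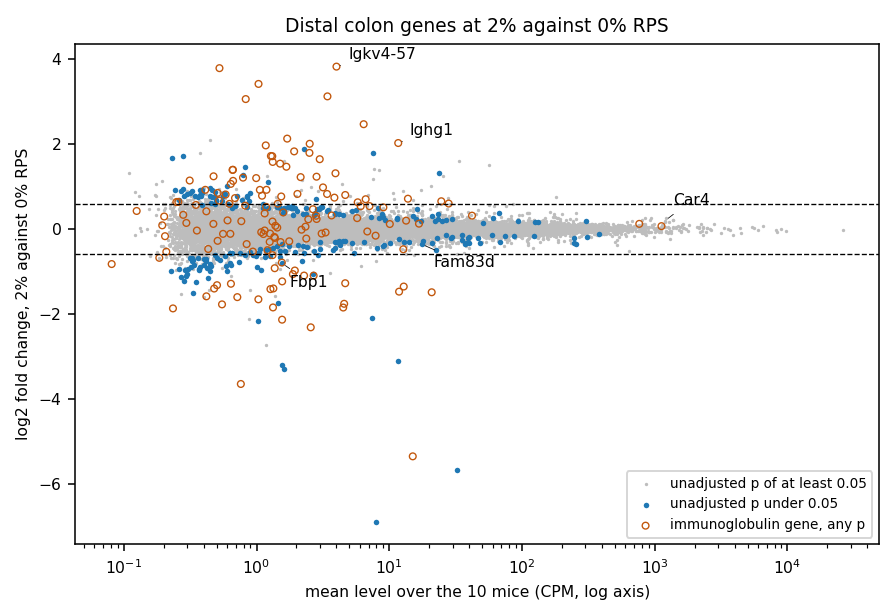
Log2 fold change of each tested gene at 2% against 0% RPS (vertical axis) by its mean level over the 10 mice in CPM (horizontal log axis), with genes under an unadjusted p of 0.05 in blue, immunoglobulin genes circled in orange and dashed lines at a 1.5-fold change. Most well expressed genes lie close to 0 and immunoglobulin genes spread widely, while the lowest points are Pbsn at -6.89 and Fcgbpl1 at -5.66, each high in 1 control mouse.

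How far the data limit a change depended on the level of the gene. For 12895 genes (72.1%) the whole 95% interval of the fold change lay within 1.5-fold in either direction, for 11 genes it lay outside, and for 4987 it covered both. Among 2078 genes above 100 CPM the share held within 1.5-fold was 96.1%, and the median interval reached 1.13-fold to each side of its estimate. Between 10 and 100 CPM the share was 94.9% of 8217 genes, between 1 and 10 CPM 60.2% of 4964 genes with a median reach of 1.33-fold, and below 1 CPM 4.10% of 2634 genes with a median reach of 1.65-fold. A 1.5-fold change therefore lay outside the interval for most abundant genes, and inside it for most genes below 1 CPM, where 95 genes had an unadjusted p under 0.05 and 4 had the whole interval outside 1.5-fold. An estimate of 1.5-fold or more was seen for 381 genes (2.13%), and 83 of them were among the 142 immunoglobulin genes tested.

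In 43 genes the 5 mice of one diet all lay on one side of the 5 mice of the other, 20 with every 2% mouse higher (0.112% of genes) and 23 with every 2% mouse lower (0.129%). When no gene differs, 5 against 5 mice leave a share of 0.0079 of genes without overlap on average, counting both directions. The 43 of 17893 genes tested were a smaller share, so their number was no more than chance gives. The genes below are described for their values, and lack of overlap alone does not set them apart from chance. Values of single genes are given in CPM in the order of the mouse numbers above. Fbp1 (ENSMUSG00000069805, chromosome 13, 63012567 to 63036263) encodes fructose bisphosphatase, an enzyme of gluconeogenesis. It measured 1.84, 2.44, 1.55, 1.93 and 2.17 CPM in the controls and 1.33, 1.09, 0.811, 1.43 and 1 CPM in the 2% mice. Every 2% mouse was below every control, mouse RS10_715 lowest, and the log2 fold change of -0.81 (95% interval -1.29 to -0.33, unadjusted p 0.00204) was the lowest of the 43 among genes at 1 CPM or more. Fam83d (ENSMUSG00000027654, chromosome 2, 158610009 to 158628557), a protein of the mitotic spindle, measured 18.2, 19.1, 24.5, 17.9 and 18.6 CPM in the controls and 15.9, 15.4, 13.7, 14.3 and 17.4 CPM in the 2% mice. Mouse RS10_704 was the highest control and the remaining 4 controls lay close together, just above mouse RS10_748, with a log2 fold change of -0.36 (95% interval -0.56 to -0.16, unadjusted p 0.00118).

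Pla2g6 (ENSMUSG00000042632, chromosome 15, 79170418 to 79212631), a calcium-independent phospholipase, measured 15.1, 14.6, 14.2, 18.1 and 15.7 CPM in the controls and 13, 13.5, 13.1, 13.3 and 10.2 CPM in the 2% mice, with mouse RS10_748 lowest and a log2 fold change of -0.30 (95% interval -0.50 to -0.09, unadjusted p 0.00608). The integrin alpha M chain Itgam (ENSMUSG00000030786, chromosome 7, 127661808 to 127717753), carried by macrophages and granulocytes, measured 3.46, 4.02, 3.23, 4.2 and 3.86 CPM in the controls and 2.73, 2.85, 3.21, 3.22 and 3.14 CPM in the 2% mice. Mice RS10_709 and RS10_712 were lowest, and the log2 fold change of -0.31 (95% interval -0.63 to 0.02, unadjusted p 0.0613) was small beside the gap in Fbp1. Itgam was 1 of 21 tested macrophage and granulocyte genes described further on. A pair of zinc finger genes were the other 2 of the 6 lower genes named. Zfp128 (ENSMUSG00000060397, chromosome 7, 12615104 to 12627349) measured 3.4, 2.82, 2.42, 2.71 and 2.29 CPM in the controls and 2.25, 1.95, 1.84, 2.11 and 2.07 CPM in the 2% mice, a log2 fold change of -0.41 (95% interval -0.78 to -0.05, unadjusted p 0.0293). Zfp119a (ENSMUSG00000057835, chromosome 17, 56169475 to 56185975) ranged over 4.19 to 4.76 CPM in the controls and 2.43 to 4.01 CPM in the 2% mice, where mouse RS10_715 was the lowest. Its log2 fold change was -0.31 (95% interval -0.62 to -0.0082, unadjusted p 0.0446), and -0.20 (-0.48 to 0.08) without mouse RS10_715.

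Of the genes that lay wholly higher at 2% RPS, Slc35d3 (ENSMUSG00000050473, chromosome 10, 19723662 to 19727357), a member of the nucleotide sugar transporter family, measured 2.35, 2.22, 2.61, 2.71 and 2.05 CPM in the controls and 4.26, 3.05, 2.99, 3.36 and 2.79 CPM in the 2% mice. Mouse RS10_709 was highest and mouse RS10_748 lowest of the 2% group, just above mouse RS10_707, and the log2 fold change of 0.46 (95% interval 0.15 to 0.77, unadjusted p 0.00507) was among the 10 smallest p outside the immunoglobulins at 1 CPM or more. Pak6 (ENSMUSG00000074923, chromosome 2, 118493734 to 118528524), a serine/threonine kinase, measured 2.3, 2.37, 2.83, 2.29 and 2.47 CPM in the controls and 3.42, 2.85, 2.95, 4.04 and 3.79 CPM in the 2% mice. The gap between the groups was narrow, mouse RS10_704 at 2.83 CPM against mouse RS10_712 at 2.85 CPM, with a log2 fold change of 0.48 (95% interval 0.08 to 0.87, unadjusted p 0.0194). Scml2 (ENSMUSG00000000037, chromosome X, 159865513 to 160041214), a Polycomb group protein, ranged over 0.808 to 1.39 CPM in the controls and 1.41 to 2.14 CPM in the 2% mice, a log2 fold change of 0.52 (95% interval 0.11 to 0.93, unadjusted p 0.0161). Plxnb3 (ENSMUSG00000031385, chromosome X, 72800620 to 72816120), a plexin receptor for semaphorins, ranged over 2.26 to 3.48 CPM in the controls and 3.57 to 4.5 CPM in the 2% mice. Its log2 fold change was 0.45 (95% interval 0.09 to 0.80). That of the unnamed transcript Gm47483 (chromosome 10, 29227875 to 29229889) was 0.43 (0.08 to 0.77). Tafa1, a secreted peptide of neurons, had 0.34 with an interval that included 0 (-0.04 to 0.73, unadjusted p 0.0786).

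**Figure D2:**
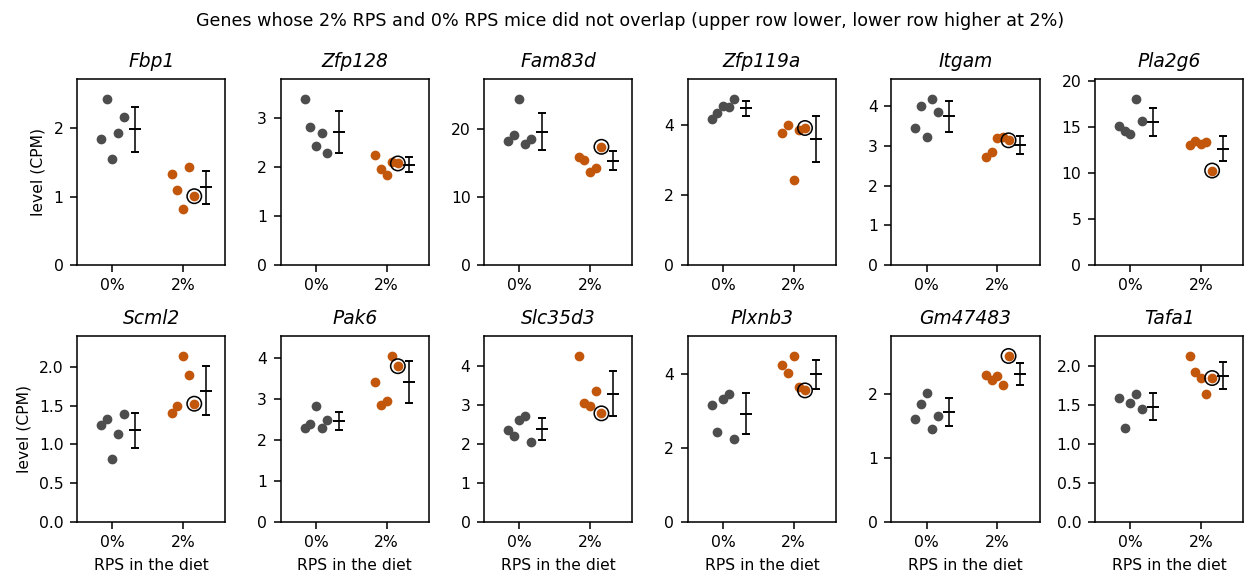
Level in CPM of 12 genes whose 2% RPS mice (orange) and 0% RPS mice (grey) did not overlap, 1 point per mouse, mouse RS10_748 circled, with mean and SD beside the points. The upper row holds genes lower and the lower row genes higher at 2% RPS, and the gaps between groups are small, as in Fam83d, where the lowest control was at 17.9 CPM and mouse RS10_748 at 17.4 CPM.

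Another 6 genes were among the smallest unadjusted p outside the immunoglobulins at 1 CPM or more, and in all 6 the diets overlapped. Tpbg, a trophoblast glycoprotein that inhibits Wnt signalling, measured 2.35, 2.94, 2.64, 1.9 and 2.95 CPM in the controls and 3.5, 3.61, 2.95, 3.83 and 4.28 CPM in the 2% mice. Mouse RS10_715 was level with the highest controls, and the log2 fold change was 0.51 (95% interval 0.18 to 0.83, unadjusted p 0.00379). The secreted metalloprotease Adamts9 measured 6.83 ± 1.66 CPM in the controls and 9.7 ± 1.89 CPM in the 2% mice (SD, n = 5), a log2 fold change of 0.50. The polo-like kinase Plk2 stood at 20.3 ± 3.6 CPM in the controls and 25.9 ± 4.09 CPM in the 2% mice, or 0.35, and the Mediator subunit Med31 at 8.13 ± 0.690 CPM in the controls and 9.89 ± 0.908 CPM in the 2% mice, or 0.28. Lower at 2% RPS was Arhgap20, a GTPase-activating protein, with 4.45 ± 0.387 CPM in the controls and 3.28 ± 0.600 CPM in the 2% mice and -0.44. Arf4os, an antisense transcript whose reads cannot be parted from those of Arf4 if counting ignored strand, measured 0.899 ± 0.227 CPM in the controls and 1.35 ± 0.179 CPM in the 2% mice, or 0.58.

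These genes were recomputed at equal total counts and without the disputed mouse. After every library was thinned to the smallest total, 40 genes did not overlap, and 14 of the 43 were among them. Of the 12 named, Fbp1, Zfp128 and Zfp119a were among those 14. Leaving a mouse out cannot create overlap, so only the log2 fold changes are given without mouse RS10_748: -0.77 for Fbp1, -0.41 for Fam83d, -0.23 for Pla2g6 and 0.51 for Slc35d3. With the 3 disputed mice at their treatment labels 9 of the 12 still did not overlap, and Scml2, Plxnb3 and Tafa1 did. Of the 253 genes with an unadjusted p under 0.05, 157 still had one without mouse RS10_748 (288 in all) and 164 had one under the treatment labels (318 in all).

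Immunoglobulin genes varied widely from mouse to mouse. Immunoglobulins are assembled from 1 of many variable segments joined to a constant gene in each B cell clone, so the level of a single segment can follow a few clones. Igkv4-57 (ENSMUSG00000076556, chromosome 6, 69552959 to 69553484), a kappa light chain variable segment, measured 0.170, 1.17, 0.497, 0.327 and 0.482 CPM in the controls and 0.523, 2.58, 25.2, 4.4 and 4.67 CPM in the 2% mice. Mice RS10_712, RS10_715, RS10_716 and RS10_748 were above every control, mouse RS10_709 was below control mouse RS10_703, and mouse RS10_715 held more than the other 9 mice combined. The fold change was 14.1 (95% interval 3.97 to 50.3), with an edgeR unadjusted p of 0.000480, adjusted 0.9997, and with DESeq2 the adjusted p was 0.0235. Without mouse RS10_715 the log2 fold change went from 3.82 to 2.54, and DESeq2's adjusted p to 1. Without mouse RS10_748 it was 3.95, with a DESeq2 adjusted p of 0.0593. DESeq2 called the segment with mouse RS10_703, RS10_709 or RS10_712 left out and not with any of the other 7 left out. By the descriptions, Igkv4-57 ranged over 1.39 to 3.41 CPM at 5% and 1.197 to 9.01 CPM at 10% RPS. Every mouse at those doses was above the highest control. Against the same controls the log2 fold change was 2.19 (95% interval 0.31 to 4.07) at 5% RPS. At 10% RPS it was 3.16 (1.31 to 5.01), and edgeR called the segment at neither dose.

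The segment is shown beside its closest relative because a 50-base read may not tell them apart. Capitals mark the bases that differ between the pair, both from the minus strand of GRCm39, at chr6:69552962-69553261 for Igkv4-57 and chr6:69584262-69584561 for Igkv4-55.
Igkv4-57: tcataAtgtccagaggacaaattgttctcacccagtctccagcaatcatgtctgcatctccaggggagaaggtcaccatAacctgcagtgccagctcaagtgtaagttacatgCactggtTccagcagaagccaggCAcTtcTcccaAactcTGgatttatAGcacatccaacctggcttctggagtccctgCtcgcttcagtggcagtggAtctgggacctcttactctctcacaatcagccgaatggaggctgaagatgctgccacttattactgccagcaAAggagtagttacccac
Igkv4-55: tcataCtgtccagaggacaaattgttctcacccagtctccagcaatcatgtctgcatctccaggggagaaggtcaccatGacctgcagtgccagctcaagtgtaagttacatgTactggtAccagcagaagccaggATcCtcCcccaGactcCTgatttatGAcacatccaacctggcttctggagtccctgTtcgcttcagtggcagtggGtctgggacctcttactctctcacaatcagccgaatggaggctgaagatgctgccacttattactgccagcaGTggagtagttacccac
The 2 variable exons differ at 17 of 300 bases (94.3% identity), with long runs shared between the differences. Of the 303 stretches of 50 bases in the Igkv4-57 transcript, 154 (50.8%) also occur in at least 1 of 18 other Igkv4 genes, so part of its reads could have been counted to either. Igkv4-55 itself had a log2 fold change of 0.07 (95% interval -2.49 to 2.64). The heavy chain segment Ighv3-6 shared 3.32% of such stretches and the kappa segment Igkv9-123 shared 0.915%.

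As a share of all kappa variable segment counts, Igkv4-57 took 0.218%, 0.169%, 0.860%, 0.301% and 0.841% in the controls, and 0.402%, 3.04%, 5.87%, 2.49% and 4.75% at 2% RPS. Mouse RS10_709 again lay within the controls, and the other 4 mice at 2% RPS had Wilson 95% intervals, which cover counting error only, wholly above those of every control. Mouse RS10_715 rested on 683 reads of the segment and mouse RS10_701 on 6. In rank among kappa segments its place was 5 in mice RS10_715 and RS10_748, 11 in mice RS10_712 and RS10_716, and between 23 and 57 in the rest. It was the top segment in none. That place was held by Igkv12-44 in mouse RS10_703 (21.2% of kappa counts), Igkv10-96 in mouse RS10_707 (19.0%) and mouse RS10_715 (14.2%), Igkv3-5 in mouse RS10_748 (16.7%), and by others elsewhere.

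Ighg1 (ENSMUSG00000076614, chromosome 12, 113288860 to 113294143), the constant gene of immunoglobulin G of that subclass, measured 5.9, 8.61, 5.65, 2.29 and 0.603 CPM in the controls and 14, 4.31, 40.1, 29.6 and 5.71 CPM in the 2% mice. Mice RS10_715, RS10_716 and RS10_709 were above all controls and mice RS10_712 and RS10_748 within them, with a log2 fold change of 2.02 (95% interval 0.60 to 3.45, unadjusted p 0.00966) that was 1.54 without mouse RS10_715 and 2.26 without mouse RS10_748. At 5% and 10% RPS the log2 fold changes of Ighg1 were 1.64 (0.21 to 3.07) and 3.03 (1.61 to 4.44). At 2% RPS Ighv3-6 had a log2 fold change of 1.31 (0.39 to 2.24) and Igkv9-123 of 3.41 (0.92 to 5.91). At 10% RPS these were 0.96 (0.02 to 1.89) for Ighv3-6 and 1.7 (-0.97 to 4.36) for Igkv9-123. The genes of the main mucosal antibody had log2 fold changes nearer 0. Igha, its heavy chain, measured 616, 3308, 558, 653 and 353 CPM in the controls and 871, 646, 2225, 1128 and 876 CPM in the 2% mice, a log2 fold change of 0.07 with a wide interval of -1.05 to 1.18. Mice RS10_703 and RS10_715 were highest, and the groups overlapped. Igkc was at 0.12 (-0.97 to 1.21), Ighm at 0.31 (-0.41 to 1.04), and the joining chain Jchain at 0.23 (-0.88 to 1.33). Pigr, the epithelial receptor that carries immunoglobulin A to the lumen, was held to 0.01 (-0.24 to 0.26).

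Over the families, 7 of 63 tested heavy variable segments were higher and 0 lower at an unadjusted p under 0.05, 5 of 65 kappa segments were higher and 3 lower, and 1 of 11 constant genes, Ighg1, was higher, where 0.693% of all genes were higher and 0.721% lower. Median log2 fold changes were 0.33 for heavy segments, 0.14 for kappa segments and 0.20 for constant genes, beside -0.00098 for all genes. These medians turned on single mice: the heavy segment median was -0.24 without mouse RS10_715 and 1.38 without mouse RS10_703. The lowest kappa segment, Igkv14-100, had a log2 fold change of -5.35 and held 146 CPM in mouse RS10_703. All immunoglobulin genes together took 0.0721 to 0.695% of counts at 0% RPS, mouse RS10_703 highest, and 0.137 to 0.485% at 2% RPS.

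**Figure D3:**
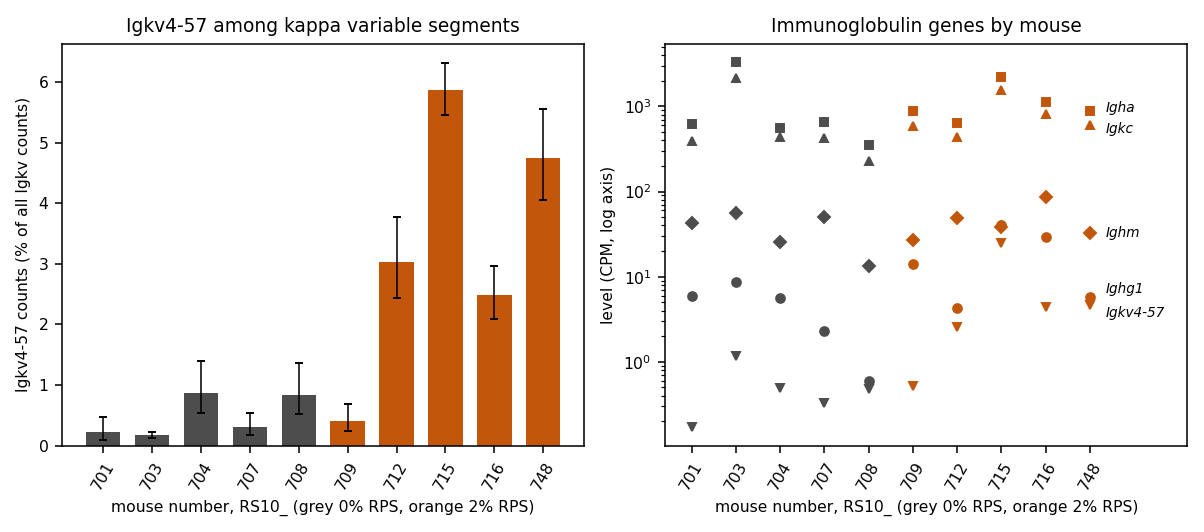
Left, Igkv4-57 counts as a percent of all kappa variable segment counts in each mouse, with Wilson 95% intervals. Right, CPM on a log axis of Igha, Igkc, Ighm, Ighg1 and Igkv4-57 in each mouse (grey 0% RPS, orange 2% RPS): Igkv4-57 took 0.402% in mouse RS10_709 and 2.49 to 5.87% in the other mice at 2% RPS, while Igha and Igkc were highest in mouse RS10_703.

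Genes of butyrate handling mostly had intervals within a 1.5-fold change. None of 33 tested genes of butyrate uptake, sensing and oxidation had an unadjusted p under 0.05, 27 had intervals within 1.5-fold, and their median log2 fold change was -0.02. Slc16a1, the main monocarboxylate transporter, measured 271, 307, 316, 309.8 and 297 CPM in the controls and 326, 345, 309, 321 and 318 CPM in the 2% mice. Mice RS10_709, RS10_712, RS10_716 and RS10_748 were above every control and mouse RS10_715 within them, at a log2 fold change of 0.11 (-0.06 to 0.28). The sodium-coupled transporter Slc5a8 was at 0.07 (-0.15 to 0.28) and the fatty acid receptor Ffar2 at 0.16 (-0.52 to 0.83), the highest of the list at 1 CPM or more.

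Of 31 tested genes of sodium and water absorption none had an unadjusted p under 0.05, 22 were within 1.5-fold, and the median was -0.05. Its extremes were Slc9a3, an apical sodium-hydrogen exchanger, and Scnn1b, the beta subunit of the epithelial sodium channel. Slc9a3 measured 5.44, 14.8, 17.8, 1.49 and 1.63 CPM in the controls and 8.2, 14.8, 20.1, 10.8 and 12.5 CPM in the 2% mice. Mice RS10_703 and RS10_704 lay within the range of the 2% group and mice RS10_701, RS10_707 and RS10_708 below it, so that the log2 fold change of 0.70 (95% interval -0.90 to 2.29, unadjusted p 0.370) left a wide range. It was 0.42 without mouse RS10_707 and 1.19 without mouse RS10_704. Scnn1b measured 39.7, 21.2, 43.8, 35.5 and 55.6 CPM in the controls and 28.8, 27.2, 16.4, 27.2 and 29.9 CPM in the 2% mice, with a log2 fold change of -0.60 (95% interval -1.29 to 0.10, unadjusted p 0.0888). Control mouse RS10_703 was below all 2% mice but mouse RS10_715, and the other 4 controls above all 2% mice. The gamma subunit Scnn1g measured 40, 22.4, 40.4, 40.3 and 75.2 CPM in the controls and 34.2, 21.7, 25.6, 26.5 and 38.7 CPM in the 2% mice, with a log2 fold change of -0.57 (-1.72 to 0.57) and mouse RS10_703 again lowest of the controls.

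Among 30 surface colonocyte genes none had an unadjusted p under 0.05 and the median was -0.01, with Mal at -0.50 and Cdx2 at 0.69 as extremes. For 28 goblet cell and mucus genes the count was 0 and the median 0.005, from Muc1 at -0.29 to Muc3a at 0.19. The goblet cell gene Clca1 measured 1279 to 2638 CPM in the controls and 1236 to 2538 CPM in the 2% mice, a log2 fold change of -0.0015 (-0.51 to 0.51). The epithelial antimicrobial defence list had 1 of 28 higher and a median of 0.0042. The higher member was the chemokine Cxcl9 at 1.27 (0.11 to 2.43), which averaged below 1 CPM. At 1 CPM or more the highest member was Wfdc18 at 0.44. Stem cell and Wnt target genes (19 tested, median 0.10), enteroendocrine genes (21, 0.03) and tuft cell genes (14, 0.04) had 0 in either direction. Cell cycle genes (35 tested, median 0.17) also had 0, and only 5 of them were within 1.5-fold. Their median was 0.02 without mouse RS10_748, 0.03 without mouse RS10_707 and 0.30 without mouse RS10_704.

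Metabolic lists gave few low p-values. Xenobiotic and steroid metabolism had 0 of 39 higher and 2 lower, the efflux pump Abcb1a at -0.21 (-0.41 to -0.01) and the carboxylesterase Ces2c, which has close paralogs, at -0.33 (-0.65 to -0.0048), with a median of -0.08. Its lowest member, Cyp11a1, which makes pregnenolone from cholesterol, measured 2.92, 0.380, 1.43, 9.25 and 9.97 CPM in the controls and 2.13, 4.57, 1.03, 1.79 and 2.04 CPM in the 2% mice. Controls RS10_707 and RS10_708 were above and control RS10_703 below all 2% mice, with a log2 fold change of -1.05 (95% interval -2.46 to 0.37, unadjusted p 0.139). Retinoid metabolism (27 tested) had 0 and a median of -0.01, metal handling (16) 0 and -0.11, the circadian clock (18) 0 and 0.01, and cholesterol and lipid synthesis (22) 0 and 0.26, with 20 of 22 estimates above 0 and a median between 0.12 and 0.50 when any 1 mouse was left out.

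Interferon-stimulated genes had 0 of 52 with an unadjusted p under 0.05, a median of 0.10 and 41 estimates above 0. The nucleic acid sensor Zbp1 measured 7.09, 11.4, 8.95, 5.77 and 5 CPM in the controls and 9.05, 19.6, 16.5, 10.4 and 13.2 CPM in the 2% mice, with a log2 fold change of 0.85 (95% interval -0.17 to 1.87, unadjusted p 0.0965). Mice RS10_712, RS10_715 and RS10_748 were above every control and mice RS10_709 and RS10_716 within them. The interval draws on the spread in all 4 diets. The SD of Zbp1 was 2.58 CPM at 0%, 4.34 CPM at 2%, 23.6 CPM at 5% and 10.6 CPM at 10% RPS. Under the treatment labels Zbp1 was at 1.16 (0.06 to 2.27, unadjusted p 0.0417), and 1 of the 52 genes was then higher. Psmb8, an immunoproteasome subunit singled out after its values were seen, was 1 of the 43 genes without overlap, at 18 to 26.2 CPM in the controls and 27.6 to 29.9 CPM in the 2% mice and a log2 fold change of 0.34 (-0.01 to 0.68). Antigen presentation by MHC class II had 0 of 11 and a median of 0.05.

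Macrophage and granulocyte genes had the lowest median of the cell type lists, -0.24, with 17 of 21 estimates below 0. Csf1r, the receptor for colony stimulating factor, measured 42.5, 51.5, 29.9, 39.2 and 58.2 CPM in the controls and 34.7, 33.2, 37.1, 39.9 and 31.7 CPM in the 2% mice. Control mouse RS10_704 lay below the 2% group and mouse RS10_708 was highest, with a log2 fold change of -0.33 (95% interval -0.61 to -0.04, unadjusted p 0.0291). The complement component C1qc was at -0.36 (-0.68 to -0.04) and the mannose receptor Mrc1 at -0.34 (-0.67 to -0.01), which made 3 of 21 lower at an unadjusted p under 0.05 beside 0.721% of all genes, and 0 higher. The list summed to 321 to 551 CPM in controls and 352 to 395 CPM in 2% mice, and its median lay between -0.29 and -0.12 when any 1 mouse was left out and was -0.19 under the treatment labels. In a piece of whole tissue, fewer cells of a type and less RNA per cell cannot be told apart. T cell genes (18 tested) had 0 and a median of -0.03, plasma cell genes other than immunoglobulins (17) 0 and 0.09, and B cell follicle genes (19) 0 and 0.25, a value of -0.00099 without mouse RS10_708 and 0.49 without mouse RS10_703. The plasma cell median was -0.05 without mouse RS10_715 and 0.36 without mouse RS10_703.

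Genes of the wall around the mucosa lay slightly above 0. All 20 genes of enteric neurons and glia had estimates above 0 (median 0.16), as did 16 of 17 smooth muscle genes (0.13) and 17 of 20 fibroblast genes (0.06), with 0 at an unadjusted p under 0.05 in each and 17, 16 and 18 genes within 1.5-fold. The summed levels per mouse overlapped in each list. They were 277 to 337 CPM at 0% and 293 to 355 CPM at 2% RPS for neurons and glia. For smooth muscle they were 12530 to 19685 CPM and 13499 to 21820 CPM, and for fibroblasts 3428 to 5503 CPM and 3601 to 4875 CPM. Adipocyte genes (13 tested, median 0.33) and immediate early genes (22, median 0.30) had 0 as well, and without mouse RS10_715 their medians were 0.02 and 0.04. Posterior Hox genes (11) had a median of 0.04 and anal squamous genes (9) of 0.04. Pancreatic enzyme genes (12) had 0 and a median of 0.26, which was -0.03 without mouse RS10_715.

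Under the treatment labels the counts at an unadjusted p under 0.05 moved in several lists. Sodium and water absorption then had 1 of 31 higher and 1 lower, cell cycle 2 of 35 higher, epithelial antimicrobial genes 2 of 28 higher, T cell genes 1 of 18, immediate early genes 1 of 22 and enteric neuron and glia genes 1 of 20 higher. Xenobiotic and steroid metabolism had 4 of 39 lower, metal handling 2 of 16 lower, surface colonocyte genes 1 of 30 lower and heavy variable segments 9 of 63 higher. Macrophage and granulocyte genes still had 3 of 21 lower, and 2 of 21 without mouse RS10_748.

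**Figure D4:**
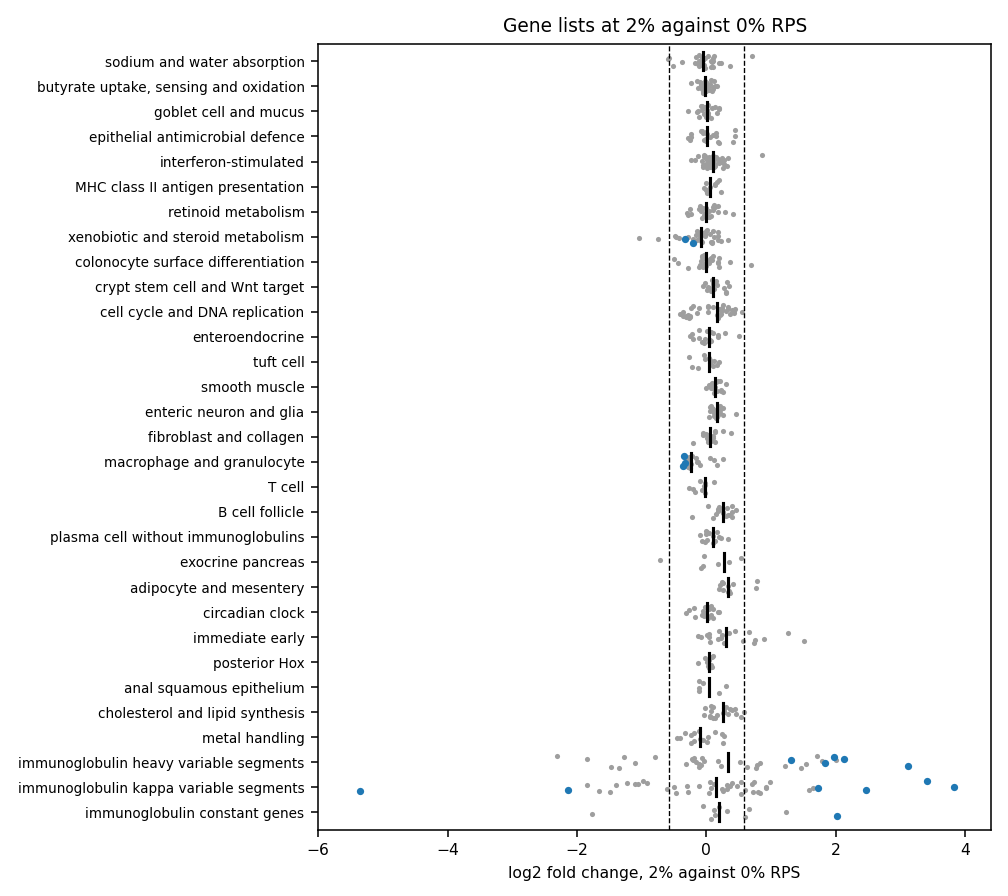
Log2 fold changes at 2% against 0% RPS in 31 gene lists, 1 point per member at 1 CPM or more, blue where the unadjusted p was under 0.05, with a black bar at the median of all tested members and dashed lines at a 1.5-fold change. Medians outside the immunoglobulins lie between -0.24 (macrophage and granulocyte) and 0.33 (adipocyte and mesentery), and the widest spread of members is in the immunoglobulin lists.

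The genes that edgeR called at 10% against 0% RPS, 7 of 17893 (0.0391%), against 0 at 5% RPS (0%), were followed back to the lowest dose. They were chosen on these samples and share the 0% mice with the 2% comparison, so their values are set side by side without a test. Rdh9, a retinol dehydrogenase, measured 2.13, 1.58, 3.04, 1.96 and 1.3 CPM in the controls and 2.33, 2.98, 1.7, 1.5 and 2.82 CPM in the 2% mice. Its means were 2 ± 0.667 CPM at 0%, 2.27 ± 0.658 CPM at 2%, 5.24 ± 2.18 CPM at 5% and 6.45 ± 1.41 CPM at 10% RPS (SD, n = 5), log2 fold changes of 0.18 (-0.39 to 0.76) at 2% and 1.69 (1.13 to 2.25) at 10% RPS. The membrane carbonic anhydrase Car4 measured 1166, 1043, 1348, 1137 and 886 CPM in the controls and 1083, 1316, 1452, 1256 and 1284 CPM in the 2% mice. The 2% mice lay inside the control range or, in mouse RS10_715, above it, with means of 1116 ± 169 CPM at 0%, 1278 ± 133 CPM at 2%, 1532 ± 246 CPM at 5% and 1825 ± 131 CPM at 10% RPS. The urate and xenobiotic exporter Abcg2 measured 49.5, 59.8, 62.8, 55.1 and 55.7 CPM in the controls and 50.7, 62.5, 62, 60.8 and 65.2 CPM in the 2% mice, with mouse RS10_709 near the lowest control and mouse RS10_748 above the highest. Its means were 56.6 ± 5.07 CPM at 0%, 60.2 ± 5.56 CPM at 2%, 78.9 ± 14.8 CPM at 5% and 93 ± 8.89 CPM at 10% RPS.

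Irf1, a transcription factor of the interferon response, averaged 134 ± 16.2 CPM at 0%, 144 ± 5.88 CPM at 2%, 166 ± 24.4 CPM at 5% and 209 ± 25.4 CPM at 10% RPS. The calcium-binding copine Cpne2 averaged 23.9 ± 3.26 CPM at 0%, 27.3 ± 2.32 CPM at 2%, 36.8 ± 9.65 CPM at 5% and 44.9 ± 9.08 CPM at 10% RPS, the transcript Gm12056 0.894 ± 0.200 CPM at 0%, 1.08 ± 0.0827 CPM at 2%, 1.48 ± 0.390 CPM at 5% and 2.28 ± 0.842 CPM at 10% RPS, and Mgam2-ps, an annotated relative of maltase-glucoamylase, 51.7 ± 5.9 CPM at 0%, 54.5 ± 5.69 CPM at 2%, 64.3 ± 10.7 CPM at 5% and 84 ± 9.98 CPM at 10% RPS. All 7 estimates were above 0 at 2% RPS, from 0.07 to 0.26. By the descriptions, the upper limit at 2% was below the lower limit at 10% RPS in all 7, as for Abcg2 with -0.13 to 0.31 and 0.50 to 0.94. With the 3 disputed mice at their treatment labels it was so in 0 of 7. Abcg2 then had -0.14 to 0.41 at 2% and 0.33 to 0.88 at 10% RPS, and Rdh9 had a log2 fold change of 0.55 (-0.25 to 1.35) at 2% and 1.52 (0.73 to 2.31) at 10% RPS.

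Other genes that the study discusses were likewise chosen on these samples. Slc9a3 had log2 fold changes of 0.70 at 2%, 3.23 at 5% and 3.47 at 10% RPS. Under the treatment labels it was 1.49 (-0.40 to 3.37) at 2% and 3.24 at 10% RPS. By the descriptions Scnn1b had -0.60, -1.02 and -1.54, for Scnn1g -0.57, -1.40 and -2.10, and for Cyp11a1 -1.05, -2.13 and -3.68. In each the estimate at 2% RPS had the sign of the higher doses and an interval that included 0. Zbp1 gave 0.85, 1.83 and 1.76, the cytokine signalling inhibitor Socs3 0.44, 2.10 and 1.56, and the antiviral genes Oas3 and Mx1 0.28 and 0.23 at 2% RPS against 1.69 and 1.2 at 10%. Intervals at 2% RPS draw on the spread in all 4 diets. The SD of Socs3 was 1.99 CPM at 2% and 29 CPM at 5% RPS, and that of Slc9a3 4.5 and 66.9 CPM. In Scnn1b, Scnn1g and Cyp11a1 the SD at 5% RPS was below that at 0% RPS. The oxidase Duox2 stood at 0.17 (-0.33 to 0.67) at 2% RPS, the mucin Muc3a at 0.19 (-0.24 to 0.62) and the scramblase Ano9 at 0.10 (-0.07 to 0.27). Retnlb, a goblet cell peptide, was near the floor of 3 counts per library in both groups, at 0 to 0.186 CPM in the controls and 0.0324 to 0.443 CPM in the 2% mice, and no fold change is given. Ang4, an antimicrobial ribonuclease with close paralogs, ranged over 0.149 to 1.83 CPM in the controls and 0.199 to 2.36 CPM in the 2% mice.

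**Figure D5:**
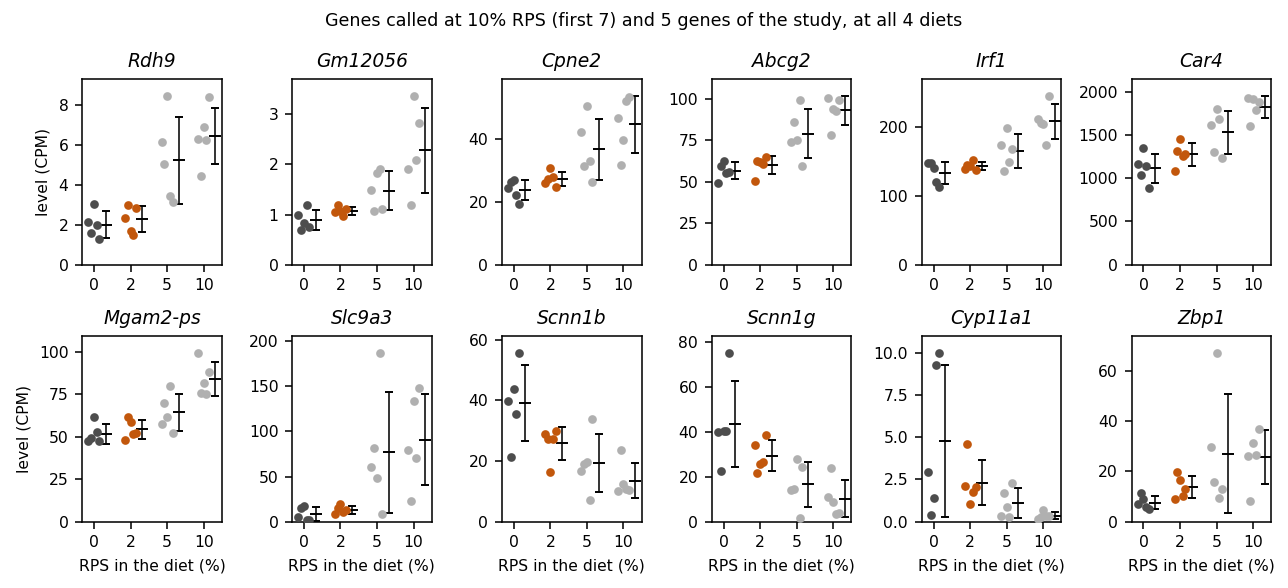
Level in CPM of 12 genes in each mouse over the 4 diets (horizontal axis, percent RPS), 0% RPS dark grey, 2% RPS orange, 5% and 10% RPS light grey, with mean and SD beside the points. The first 7 genes are those called at 10% RPS and the last 5 come from the study's own list, and in all 12 the points at 2% RPS overlap those at 0% RPS.

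A list of distal colon genes from the study's tables was chosen on these samples and is no independent evidence. Of 190 of its genes tested, 9 were higher and 6 lower at 2% RPS with an unadjusted p under 0.05, beside 0.693% and 0.721% of all genes, and the median log2 fold change was 0.11. Under the treatment labels these counts were 13 and 11. Of the 9 higher genes 5 were immunoglobulins, among them Igkv4-57 and Ighg1, and the 6 lower included the macrophage receptors Mrc1 and Stab1 and the platelet factor Pf4, the last 2 singled out after their values were seen. Without mice RS10_703, RS10_707 and RS10_715, 3 controls and 4 mice at 2% RPS, edgeR again called 0 genes, 256 had an unadjusted p under 0.05, and DESeq2 called 1, Ighv5-9 in place of Igkv4-57, whose adjusted p was 0.825.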

How the data were processed

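Distal colon RNA of 20 mice was read as single 50-base reads from stranded libraries. Per the study's methods the authors trimmed reads by quality, mapped them to GRCm39 with the CLC Genomics Workbench and deposited raw counts per gene. Whether counting used strand, and which mice shared a cage or litter, are not given in the sources used here. The table holds 26619 genes, of which 26338 matched GENCODE vM39 and 281 did not. From these counts, edgeR 4.0.16 (R 4.3.3) was fitted to all 20 mice with 4 diets (TMM scaling, filterByExpr with a minimum count of 10, quasi-likelihood test, Benjamini-Hochberg adjustment), and the 2% against 0% RPS contrast gave fold changes with 95% intervals. Called genes had an adjusted p up to 0.05 and at least a 1.5-fold change. DESeq2 1.42.0, the tool of the study, was an alternative. Named genes were those called by either tool, the 10 smallest p and the 6 largest changes each way without overlap among other than immunoglobulin genes at a mean of 1 CPM, the 4 immunoglobulin genes of smallest p, the genes called at 10% RPS and those the study discusses. Members and gene lists were chosen with earlier results of these data known, and the liver, prostate and red blood cell lists after the data were seen. P-values of edgeR and DESeq2 set the difference between 2% and 0% RPS against a spread between mice estimated over all 4 diets. Floors were 3 counts, and intervals of shares cover counting error only.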

Additional observations from a re-analysis of the deposited data

Results flagged for a closer look

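In 9 of 100 groups of 5 mice examined, 1 mouse lay far from the other 4 by Dixon's test, which flags about 1 group in 20 by chance. Mouse RS10_715 of the 2% RPS group held 25.2 CPM of Igkv4-57 (nearest mouse 4.67 CPM), 2.43 CPM of Zfp119a (nearest 3.78 CPM) and 16.4 CPM of Scnn1b (nearest 27.2 CPM). Mouse RS10_748 of that group held 10.2 CPM of Pla2g6 (nearest 13.0 CPM). At 0% RPS, mouse RS10_704 held 24.5 CPM of Fam83d (nearest 19.1 CPM), mouse RS10_708 held 1.30 CPM of Arf4os (nearest 0.854 CPM) and mouse RS10_707 held 0.744 CPM of Igkv9-123 (nearest 0.0949 CPM). Mouse RS10_703 gave 0.695% of its counts to immunoglobulin genes (nearest 0.147%) and summed to 1542 CPM over the other plasma cell genes (nearest 1001 CPM).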

How the results depend on the processing

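edgeR called 0 genes in every setting tried, and its smallest adjusted p ranged down to 0.0950 without mouse RS10_703. Fitted to the 10 mice alone, edgeR gave 217 genes an unadjusted p under 0.05 and 12845 intervals within a 1.5-fold change. No paired analysis was possible because each mouse number occurs in 1 group only. Genes with an unadjusted p under 0.05 numbered 584 with no filter on low counts and 165 with a mean of 1 CPM required, and 234 to 456 when 1 mouse was left out, highest without mouse RS10_703 (456) and mouse RS10_704 (428). DESeq2 called 1 gene, 0 to 3 with 1 mouse left out and 1 without mice RS10_703, RS10_707 and RS10_715. Genes without overlap numbered from 83 of 17988 (without mouse RS10_707) to 172 of 18001 (without mouse RS10_703) with 1 mouse left out. Without those 3 mice they numbered 515 of 18122. Fewer mice make overlap rarer, and each count was below what chance gives on average for that many mice. The log2 fold change of Clca1 changed sign, to 0.10 under the treatment labels and between -0.18 and 0.20 with 1 mouse left out. The cause of these shifts was not tested beyond the number of mice. With 5 mice a side, the median interval of genes under 1 CPM reached 1.65-fold to each side.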
